A study of Bos taurus with 14 samples.

Results

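The genes described here carry the insulin-like growth factor (IGF), growth hormone and insulin signals that reach muscle. A list of 10 genes was followed, comprising the ligands *IGF1* and *IGF2*, the receptors *IGF1R*, *INSR* and *GHR*, the receptor substrate *IRS1* and the binding proteins *IGFBP3*, *IGFBP4*, *IGFBP5* and *IGFBP6*. Every probe set (the group of short oligonucleotides that reads 1 transcript) whose only gene symbol was on the list was kept. These were 31 probe sets of 9 genes, among 24016 bovine probe sets on the array. *IRS1* had no probe set under its symbol and was not analysed here.

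Growth hormone from the pituitary binds the growth hormone receptor and, through JAK2 and STAT5, raises transcription of *IGF1* in liver and, locally, in muscle. IGF1 and IGF2 bind the IGF1 receptor, insulin binds the insulin receptor, and both receptors phosphorylate IRS and SHC proteins that lead to PI3K, AKT, mTORC1 and the MAPK cascade. IGF binding proteins hold the ligands in blood and tissue and set how much of them is free to reach the receptors. In muscle this system is known for its part in growth, protein synthesis and glucose uptake.

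The arrays came from Charolais × Limousin heifers of a larger feeding trial, allocated at random to 1 of 2 production systems for the last year of their lives. The 7 outdoor/pasture-fed animals grazed ryegrass, meadow grasses and white clover. The 7 indoor/concentrate-fed animals were housed throughout and given a barley and beet pulp concentrate with barley straw, at an allowance meant to match their growth to that at pasture. Diet and housing thus changed together and cannot be told apart. Animals of each system were kept in several groups, and the labels name neither these groups nor a batch, so each animal was taken as independent. RNA from *M. longissimus dorsi* (LD) muscle, taken shortly after slaughter, was hybridised to 1 Affymetrix GeneChip Bovine Genome Array per animal.

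All values are expression on the log2 scale as deposited, and every difference is the outdoor/pasture-fed mean less the indoor/concentrate-fed mean, so that 1 unit is a 2-fold change and positive means higher at pasture. The summary method of the study, FARMS, returned almost the same value on all 14 arrays for 14393 bovine probe sets (59.9%). The other 9623, whose standard deviation (SD) across the arrays exceeded 0.01, are called varying. Skeletal muscle markers were high on every array, with a mean over 8 genes (3 of them varying on the probe set used) of 13.80 to 13.83 at pasture and 13.65 to 13.81 indoors. The difference was 0.05 (two-sided exact permutation p = 0.0175). The 3 varying probe sets used, of *MYH1*, *MYH7* and *TNNT1*, were each higher at pasture, by 0.14, 0.11 and 0.13. Of all 12 varying probe sets of the list, 8 were higher and 4 lower at pasture. At an unadjusted p under 0.05, 1 was higher and 3 were lower, all 4 of *MYH1*, and 0 passed adjustment. Arrays correlated at r = 0.952 to 0.990 over the varying probe sets, and indoor/concentrate-fed replicate 2 stood lowest, with a median r of 0.962 with the others.

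No ligand, receptor or binding protein passed the test of a difference between the production systems. In limma, a linear model with moderated variances fitted to all 24016 probe sets, 0 of the 31 had a Benjamini-Hochberg adjusted p under 0.05, against a background of 0.0167% (4 probe sets). In a fit of the varying probe sets alone it was again 0, with a background of 0.343%. At an unadjusted p under 0.05 there were 0 of 31, where 11.4% of all probe sets stood, and 0 of the 12 varying ones, where the share was 19.9%. The ranges of the groups overlapped for all 12, while 0.811% of the varying probe sets had ranges that did not. The exact permutation test over the 3432 assignments of the arrays gave p = 0.161 to 0.979 for these 12.

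The differences of the 12 varying probe sets ran from -0.23 to 0.23, 7 of them higher and 5 lower at pasture. Their median was 0.02 and their median size 0.12, beside -0.01 and 0.0990 over all varying probe sets. A missed threshold does not show that levels were equal, so the 95% confidence intervals matter here. They lay within 1.5-fold in either direction for 8 of the 12 and within 2-fold for 11. *IGFBP5* was the exception. FARMS returned constants at low and high values alike, such as *IGF1R* at 5.74 and *GSK3A* at 10.34. The intervals of all 12 therefore bound the deposited values alone.

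**Figure D1:**
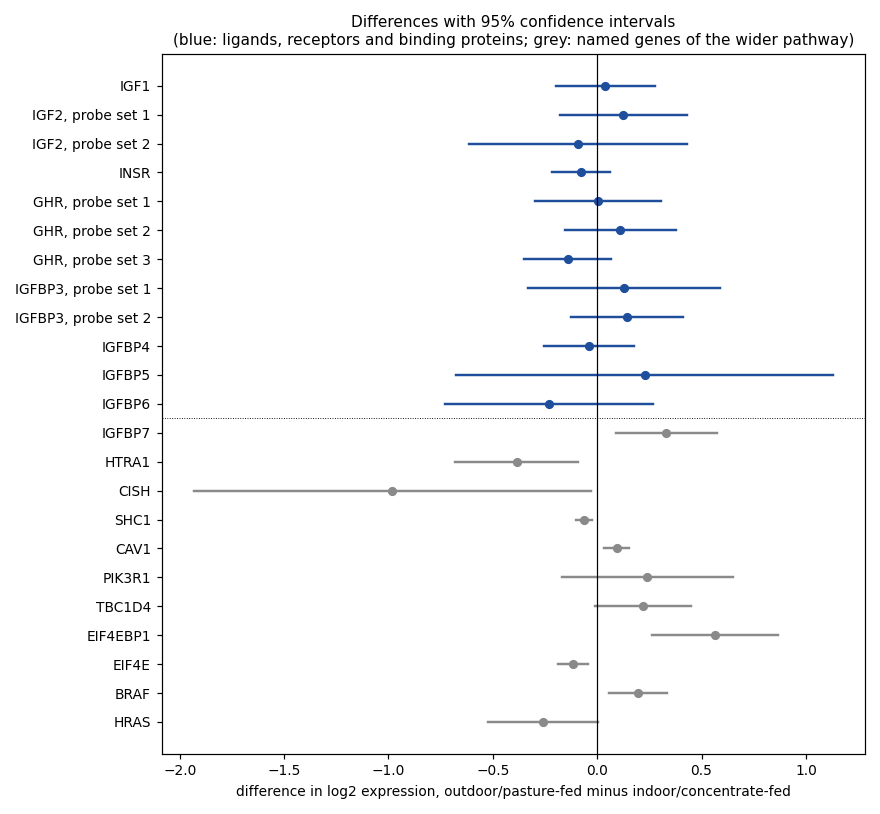
Differences in log2 expression of the outdoor/pasture-fed from the indoor/concentrate-fed animals (horizontal axis), with limma 95% confidence intervals as lines, for the 12 varying probe sets of the ligands, receptors and binding proteins (blue) and for named genes of the wider pathway (grey). Every blue interval crosses 0, and the widest, for *IGFBP5*, runs from -0.67 to 1.13.

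The remaining 19 probe sets were constant, with an SD of at most 1.04e-05 over the arrays. They included both probe sets of *IGF1R*, 3 of the 4 of *IGF1*, 2 of the 4 of *IGF2*, 4 of the 5 of *INSR* and 8 of the 11 of *GHR*. For *IGF1R*, the receptor of the IGFs, the deposited values therefore cannot show a difference of any size. All 5 probe sets of the binding proteins varied, against 3 of 8 for the ligands and 4 of 18 for the receptors.

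*IGF1*, which growth hormone induces and which drives muscle fibre growth, was read by 1 varying probe set (Bt.12750.1.S1_at). At pasture it ranged from 5.97 to 6.86 with a median of 6.35, and indoors from 6.20 to 6.50 with a median of 6.25. The indoor range lay wholly inside the outdoor range, whose ends were replicate 7 (low) and replicate 5 (high). The means were 6.35 ± 0.27 and 6.31 ± 0.11 (SD, n = 7 each), a 1.03-fold ratio with a 95% interval of 0.871 to 1.21 (adjusted p = 0.933 from limma). Without outdoor/pasture-fed replicate 5 the difference of 0.04 (SE 0.11) became -0.05.

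*IGF2*, the other IGF ligand, which is abundant in the foetus and is also expressed by adult muscle, had 2 varying probe sets that differed in sign. On probe set 1 (Bt.7676.3.S1_at) the outdoor/pasture-fed animals lay between 8.90 and 9.92 with a median of 9.10, and the indoor/concentrate-fed animals between 8.99 and 9.35 with a median of 9.05. The difference was 0.13 (SE 0.14, adjusted p = 0.798 from limma). On probe set 2 (Bt.23176.2.S1_a_at) the outdoor values spanned 6.75 to 8.65 with a median of 7.44, and the indoor values 7.36 to 7.96 with a median of 7.67. The difference was -0.09 (SE 0.24, adjusted p = 0.928 from limma). Single animals moved these values. Without outdoor/pasture-fed replicate 5 the difference was 0.009 on probe set 1 and -0.28 on probe set 2. Without outdoor/pasture-fed replicate 7 it was 0.18 and 0.042, so that both were then positive.

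Both *IGF2* probe sets nevertheless moved together, with r = 0.87 over the 14 arrays and the highest value on outdoor/pasture-fed replicate 5. Without outdoor/pasture-fed replicates 5 and 6, r was 0.70. Spearman's rho was 0.72 and did not pass adjustment. The SD at pasture was 0.35 on probe set 1 and 0.61 on probe set 2, and indoors it was 0.12 and 0.20. Without replicate 5 the outdoor SDs were 0.19 and 0.41 (n = 6). Whether the spread itself differed between systems was not tested.

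**Figure D2:**
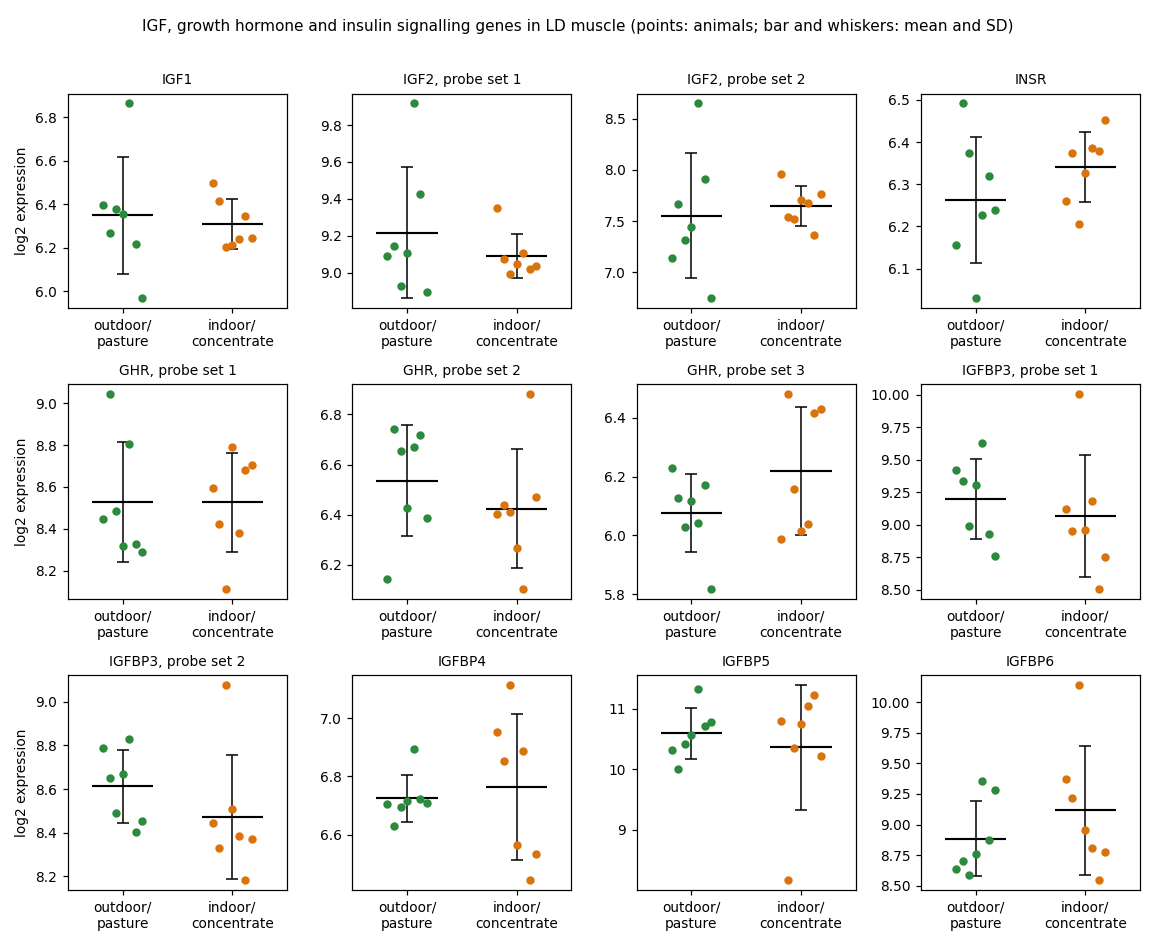
Log2 expression (vertical axes, each with its own scale) of the 12 varying probe sets of the ligands, receptors and binding proteins in 7 animals at pasture (green points) and 7 on concentrate (orange points), 1 point per animal, with the mean as a bar and the SD as whiskers. The groups overlap in every panel, and single animals set much of the spread, such as the one at 8.18 for *IGFBP5*.

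Among the receptors, *GHR*, which binds growth hormone, had 3 varying probe sets, and their differences were near 0, positive and negative. On probe set 1 (Bt.16012.1.S1_at) the outdoor/pasture-fed animals ranged from 8.29 to 9.04 with a median of 8.45, and the indoor/concentrate-fed animals from 8.11 to 8.79 with a median of 8.59. Both means were 8.53, with an interval of the difference of -0.30 to 0.31 (adjusted p = 0.996 from limma). The lowest indoor value was that of replicate 3, and the highest outdoor value that of replicate 2.

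On *GHR* probe set 2 (Bt.29806.1.A1_at) the outdoor values spanned 6.15 to 6.74 with a median of 6.65, and the indoor values 6.10 to 6.88 with a median of 6.41, a difference of 0.11 (SE 0.12, adjusted p = 0.795 from limma). On probe set 3 (Bt.29698.1.A1_at) they spanned 5.82 to 6.23 with a median of 6.12 at pasture, and 5.99 to 6.48 with a median of 6.16 indoors. The difference was -0.14 (SE 0.10, adjusted p = 0.627 from limma), the smallest adjusted p of the 12. The 3 probe sets of *GHR* correlated with each other at r = 0.10 to 0.37 over the 14 arrays, and they were not averaged. A further 2 probe sets are shared by *GHR* and *FBXO4*, so they were left out. They differed by -0.02 (SE 0.03) and -0.03 (SE 0.04).

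*INSR*, the insulin receptor, was read by 1 varying probe set (Bt.28461.2.S1_a_at), from 6.03 to 6.49 with a median of 6.24 at pasture and from 6.21 to 6.45 with a median of 6.37 indoors. The means were 6.26 ± 0.15 and 6.34 ± 0.08 (SD, n = 7 each). Its difference of -0.08 (SE 0.06, adjusted p = 0.707 from limma) had an interval of -0.22 to 0.06, the narrowest of the 12. In the deposited values, an indoor/concentrate-fed excess of more than 0.22, or an outdoor/pasture-fed excess of more than 0.06, thus lay outside the interval. The constant probe sets of *INSR* stood at 5.69 to 6.29, close to this one. FARMS returned those as constants, so the interval of the varying probe set does not bound the difference in the transcript itself.

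The binding proteins also overlapped between systems. *IGFBP3*, the main IGF carrier of blood, had 2 probe sets, both higher on average at pasture. Probe set 1 (Bt.422.1.S1_at) ranged from 8.76 to 9.63 with a median of 9.30 at pasture and from 8.51 to 10.00 with a median of 8.96 indoors, a difference of 0.13 (SE 0.21, adjusted p = 0.875 from limma). Probe set 2 (Bt.422.1.S2_at) ranged from 8.41 to 8.83 with a median of 8.65 at pasture and from 8.18 to 9.08 with a median of 8.39 indoors, a difference of 0.14 (SE 0.12, adjusted p = 0.730 from limma).

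On probe set 2 of *IGFBP3*, all 7 outdoor/pasture-fed animals lay above the indoor median, and indoor/concentrate-fed replicate 3, at 9.08, lay above all of them. Without that animal the indoor mean of 8.47 ± 0.28 became 8.37 ± 0.11 (SD, n = 6) and the difference 0.24. The adjusted p was then 0.370, so the probe set still did not pass, though its unadjusted p was 0.0105. Probe set 1 had its highest indoor value, 10.00, in the same animal, and its difference was 0.28 without it and 0.035 without indoor/concentrate-fed replicate 6.

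*IGFBP4*, which mostly restrains IGF action, ranged from 6.63 to 6.90 with a median of 6.71 at pasture and from 6.44 to 7.11 with a median of 6.85 indoors. The difference was -0.04 (SE 0.10, adjusted p = 0.925 from limma). The outdoor/pasture-fed animals were close together, with an SD of 0.08 and, without replicate 5, of 0.03 (n = 6).

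*IGFBP5*, a binding protein known for its part in muscle cell differentiation, had the widest spread. It ranged from 10.00 to 11.33 with a median of 10.57 at pasture and from 8.18 to 11.22 with a median of 10.74 indoors. The low indoor value was replicate 2, and the next lowest indoor animal was at 10.22. With all animals the difference was 0.23 (SE 0.42, adjusted p = 0.891 from limma), a 1.17-fold ratio with an interval of 0.627 to 2.19. Without indoor/concentrate-fed replicate 2 the indoor mean of 10.36 ± 1.03 became 10.73 ± 0.38 (SD, n = 6) and the difference -0.14. The sign of the *IGFBP5* difference therefore hung on 1 animal.

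*IGFBP6*, which prefers IGF2 to IGF1, ranged from 8.59 to 9.35 with a median of 8.76 at pasture and from 8.55 to 10.14 with a median of 8.96 indoors. The difference was -0.23 (SE 0.23, adjusted p = 0.767 from limma), and without indoor/concentrate-fed replicate 3 it was -0.06. That animal was at 10.14 and the next highest of its group at 9.37.

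The animals that stood out were often the same for several genes. Outdoor/pasture-fed replicate 5 was the highest of its group for all 8 varying probe sets of the ligands and binding proteins, and for 0 of the 4 of the receptors. Indoor/concentrate-fed replicate 3 was the highest of its group for both probe sets of *IGFBP3*, for *IGFBP4* and for *IGFBP6*. Indoor/concentrate-fed replicate 6 was the lowest for 5 of these 8 probe sets, and outdoor/pasture-fed replicate 7 for 4. Outdoor/pasture-fed replicate 5 also had the highest array median among the varying probe sets, 8.76 against 8.65 to 8.73 on the other arrays. The share of all varying probe sets that were highest on that array is not given here, so these counts have no background.

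**Figure D3:**
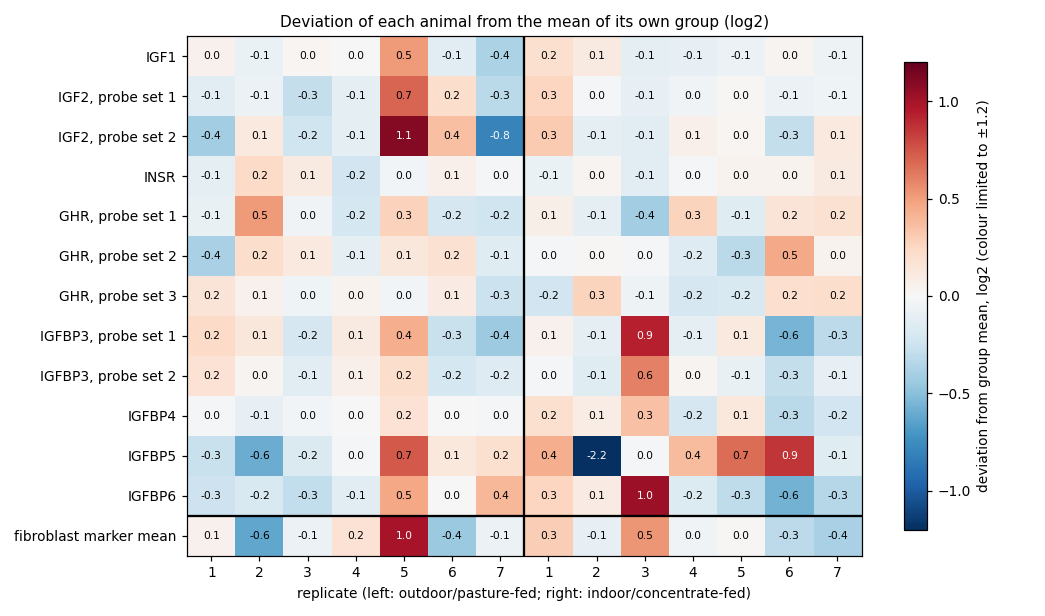
Deviation of each animal (columns, by replicate number within each production system) from the mean of its own group, in log2 units, for the 12 varying probe sets and for the mean of the fibroblast markers (bottom row). Red is above and blue below the group mean, and colours stop at 1.2 units. Outdoor/pasture-fed replicate 5 is above its group mean for all ligands and binding proteins, and indoor/concentrate-fed replicate 3 for *IGFBP3*, *IGFBP4* and *IGFBP6*.

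Correlations were computed for all 66 pairs of the 12 probe sets over the 14 arrays. Between different genes, 2 pairs passed Benjamini-Hochberg adjustment on Pearson's r, and neither passed on Spearman's rho. *IGFBP4* and *IGFBP6* had r = 0.80 (adjusted permutation p = 0.0119) and rho = 0.75 (adjusted permutation p = 0.0861), with r = 0.70 at pasture, 0.84 indoors and 0.59 without the pair of arrays farthest from the median. Probe set 1 of *IGFBP3* and *IGFBP4* had r = 0.73 (adjusted permutation p = 0.0436) and rho = 0.56 (adjusted permutation p = 0.495), with 0.45 at pasture, 0.87 indoors and 0.48 without the farthest pair. Indoor/concentrate-fed replicate 3 was 1 of the animals left out for both pairs.

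*IGF1* and probe set 1 of *IGF2* had r = 0.77 (adjusted permutation p = 0.0948) and rho = 0.45 (adjusted permutation p = 0.589), with r = 0.78 at pasture and 0.75 indoors. Without outdoor/pasture-fed replicates 5 and 7 it was 0.11, so the pooled value rested on those animals, although the indoor value includes neither. The probe sets of *IGFBP3* and of *IGF2* followed each other within the gene, which those of *GHR* did less. For *IGFBP3* r was 0.94 (adjusted permutation p = 0.00066) and rho 0.85 (adjusted permutation p = 0.0112), and 0.85 without the farthest pair. For *IGF2*, r = 0.87 had an adjusted permutation p of 0.00198, rho was 0.72 (adjusted permutation p = 0.112), and r without the farthest pair was 0.70.

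Fibroblasts make several of these binding proteins, and in whole muscle fewer cells of a type and less RNA per cell cannot be told apart. The mean of 8 fibroblast markers (such as *COL1A1* and *DCN*), all of them varying, ran from 10.22 to 11.83 at pasture and from 10.42 to 11.33 indoors, a difference of 0.04 (exact permutation p = 0.860). It was highest at pasture in replicate 5 and highest indoors in replicate 3. Over the 14 arrays *IGFBP4* followed it with r = 0.67 (adjusted permutation p = 0.0543 over 12 relations) and rho = 0.68 (adjusted permutation p = 0.0480), with 0.91 at pasture, 0.89 indoors and 0.58 without those 2 animals.

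Probe set 1 of *IGFBP3* followed the fibroblast markers with r = 0.66 (adjusted permutation p = 0.0543) and rho = 0.66 (adjusted permutation p = 0.0480), but 0.34 without those animals. *INSR* ran the other way, with r = -0.63 (adjusted permutation p = 0.0543) and rho = -0.71 (adjusted permutation p = 0.0480), and r = -0.73 without them. The other 9 probe sets did not pass on either measure. The part of fibroblast content in these values was not tested. Outdoor/pasture-fed replicate 5 was also highest of its group for the leukocyte markers (7.59) and for the satellite cell marker *MYF5* (8.87), though not for the other marker lists. Indoor/concentrate-fed replicate 3 was lowest of its group for the skeletal muscle (13.65) and endothelial (7.76) markers. Only the fibroblast markers were related to these probe sets, so a link particular to fibroblasts is not shown.

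For the varying probe set with the highest mean in each role, the genes most like it were those whose deviations from the group means over the 14 arrays had the highest Pearson's r, among 5934 to 5936 candidate probe sets. They were chosen for this likeness, so no test is given. For *IGF2* probe set 1 they were *ZBTB1* (r = 0.89), *MYH1* on 2 probe sets (0.88 each), *MYH8* (0.87) and *LIMCH1* (0.87). *MYH1* and *MYH8* encode fast and perinatal myosin heavy chains. Both of these *MYH1* probe sets were low, with group means from 5.59 to 5.88 and outdoor/pasture-fed maxima of 7.26 and 6.92. The *MYH1* probe sets with group means from 13.68 to 13.94 were not among the most alike. Without outdoor/pasture-fed replicates 5 and 6, r was 0.83 and 0.90 for the *MYH1* probe sets and 0.84 for *MYH8*.

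For *GHR* probe set 1 the most alike were *SORL1* (0.84), *S1PR1* (0.81), *RBBP8* (0.80), *MARCHF6* (0.79) and *ANKRD1* (0.79). *SORL1*, a sorting receptor, had r = 0.90 without the farthest pair of arrays and *ANKRD1*, a stress-responsive muscle protein, 0.54. For *IGFBP5* they were *MLF1* (0.94), *NCAPD2* (0.92), *NEK6* (0.92), *NFIA* (0.91) and *CDKN2AIPNL* (0.90). Without indoor/concentrate-fed replicate 2 and outdoor/pasture-fed replicate 5 these were 0.85 for *MLF1* and between 0.71 and 0.75 for the others.

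Beyond these genes, 85 further genes of the pathway were listed in 7 groups. Of them 54 had a probe set under their symbol, and 31 were not analysed here. Among their 82 probe sets, 43 varied and 39 were constant. None had an adjusted p under 0.05 in limma, while 5 were higher and 7 lower at pasture at an unadjusted p under 0.05, all of them varying. That is 12 of 43, against 19.9% of all varying probe sets (9.23% higher and 10.7% lower). The median difference of the 43 was -0.01 and their median size 0.12.

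The group that governs ligand access (8 genes measured, 4 of them varying) had 1 gene in each direction at an unadjusted p under 0.05. *IGFBP7*, a low-affinity IGF binding protein made in blood vessels, ranged from 11.21 to 11.92 with a median of 11.52 at pasture and from 10.99 to 11.49 with a median of 11.12 indoors, a difference of 0.33 (SE 0.11, adjusted p = 0.284 from limma, exact permutation p = 0.0122). *HTRA1*, a secreted protease that cleaves IGF binding proteins, ranged from 10.95 to 11.58 with a median of 11.36 at pasture and from 11.45 to 12.25 with a median of 11.66 indoors, a difference of -0.39 (SE 0.14, adjusted p = 0.300 from limma, exact permutation p = 0.0117). For *IGFBP7* every outdoor/pasture-fed animal lay above the indoor median, and for *HTRA1* every one lay below it. Here and in the groups below, genes were named for a small p, so such a split is no further evidence. All 7 also lay above the indoor median for *IGF2R*, which had an unadjusted p of 0.315 from limma.

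Markers of endothelium, like *IGFBP7*, were on average higher at pasture. The mean of 8 endothelial markers, 6 of them varying, ran from 8.11 to 8.42 at pasture and from 7.76 to 8.13 indoors, a difference of 0.29 (exact permutation p = 0.00233). All 7 varying endothelial probe sets were higher at pasture at an unadjusted p under 0.05, where 9.23% of varying probe sets were, and 0 passed adjustment. Their part in the *IGFBP7* difference was not tested.

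In growth hormone signalling (5 genes measured, 3 varying), the largest difference was that of *CISH*, a SOCS family inhibitor that growth hormone induces through STAT5 and that curbs its receptor. The outdoor/pasture-fed animals ranged from 7.56 to 9.14 with a median of 8.49, and the indoor/concentrate-fed animals from 8.34 to 11.01 with a median of 9.15. All 7 outdoor/pasture-fed animals lay below the indoor median, and the indoor animals were widely spread, with replicates 1 and 6 at 11.01 and 10.79. The difference was -0.98 (SE 0.44), a 1.97-fold higher mean indoors, with an interval of -1.93 to -0.03. It did not pass adjustment (adjusted p = 0.421 from limma, exact permutation p = 0.0472).

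*SOCS2*, another growth hormone target of the same family, differed by 0.20 (SE 0.28, adjusted p = 0.854 from limma), which is the opposite sign to *CISH*. *SOCS3* was constant. *GH1*, the hormone itself, which the pituitary makes, had 6 probe sets, of which 5 were constant, at values from 5.40 to 6.39. The 1 varying probe set of *GH1*, with a mean of 9.77 at pasture and 9.76 indoors, differed by 0.01 (SE 0.07). It stood well above the other 5, and whether it reads *GH1* was not tested.

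**Figure D4:**
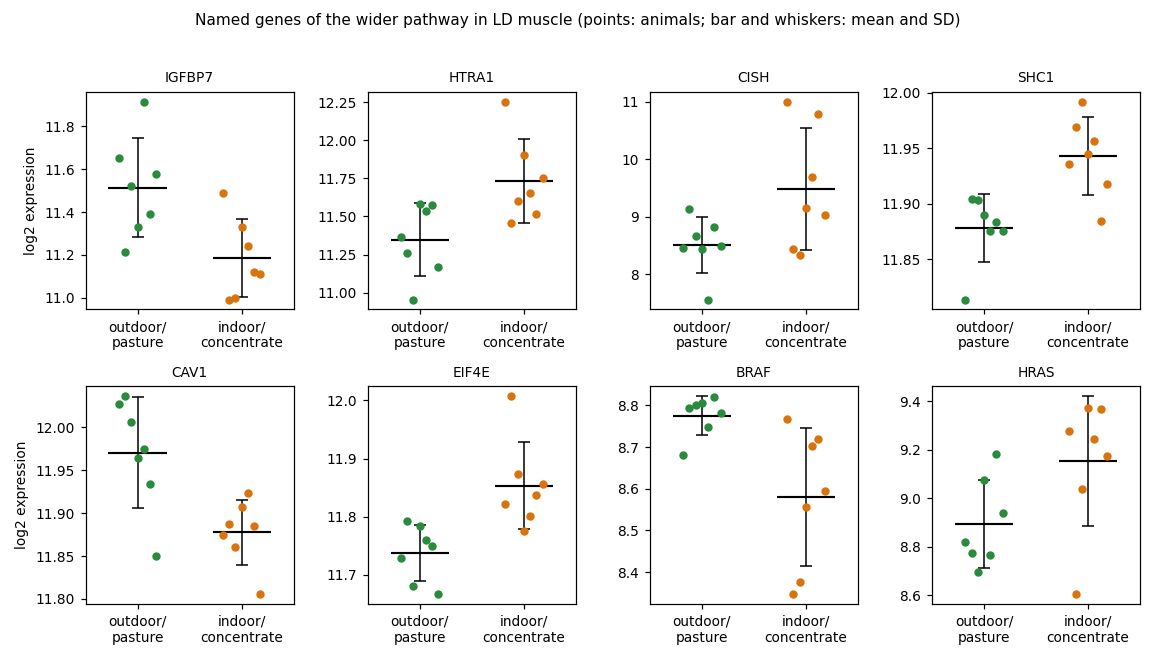
Log2 expression (vertical axes, each with its own scale) of 8 named genes of the wider pathway in 7 animals at pasture (green points) and 7 on concentrate (orange points), 1 point per animal, with the mean as a bar and the SD as whiskers. These genes were named for the smallest p in their pathway groups, so a lean between the systems follows from the choice. The systems overlap in every panel, and for *CISH* the indoor/concentrate-fed animals reach from 8.34 to 11.01.

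Among substrates and adaptors (6 genes measured, 5 varying), 2 probe sets were higher and 3 lower at pasture at an unadjusted p under 0.05. *SHC1*, the adaptor that links the receptors to the MAPK cascade, was at 11.88 ± 0.03 at pasture and 11.94 ± 0.04 indoors (SD, n = 7 each), a difference of -0.07 (SE 0.02, adjusted p = 0.224 from limma, exact permutation p = 0.00291). Its other varying probe set differed by -0.16 (SE 0.05, adjusted p = 0.247 from limma). *CAV1*, the caveolar protein that binds the insulin receptor and is abundant in endothelium, was at 11.97 ± 0.06 and 11.88 ± 0.04 (SD, n = 7 each), a difference of 0.09 (SE 0.03, adjusted p = 0.250 from limma, exact permutation p = 0.00932). Its other probe set differed by 0.36 (SE 0.15, adjusted p = 0.379 from limma). The endothelial markers, like *CAV1*, were on average higher at pasture, and their part in the *CAV1* difference was not tested. *PTPN1*, a phosphatase that switches the insulin receptor off, differed by -0.22 (SE 0.09, adjusted p = 0.371 from limma).

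The PI3K and AKT group (8 genes measured, 3 varying) and the group of AKT targets and glucose uptake (7 measured, 5 varying) had 0 probe sets at an unadjusted p under 0.05 in limma. *PIK3R1*, the regulatory subunit that docks on IRS proteins, differed by 0.24 (SE 0.19, adjusted p = 0.689 from limma), while *AKT1* and *AKT2* differed by -0.003 and -0.06. *PIK3CA*, the catalytic subunit, was constant. *TBC1D4*, which AKT phosphorylates to release the glucose transporter GLUT4, differed by 0.22 (SE 0.11, adjusted p = 0.459 from limma) and, on its other probe set, by 0.29 (SE 0.14). The related *TBC1D1* was constant. *SLC2A4*, which encodes GLUT4, differed by -0.05 (SE 0.29).

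In mTORC1 signalling (14 genes measured, 11 varying), *EIF4EBP1*, the translational repressor that mTORC1 inactivates, ranged from 8.11 to 8.85 with a median of 8.66 at pasture and from 7.75 to 8.29 with a median of 7.996 indoors. The difference was 0.57 (SE 0.14, adjusted p = 0.195 from limma, exact permutation p = 0.00466). In the fit of the varying probe sets alone its adjusted p was 0.069 from limma, so it passed in neither fit. The study, after its own filter, called *EIF4EBP1* differentially expressed and higher at pasture from these same arrays. Its direction here is therefore no independent evidence. The study also reported that *EIF4EBP1* differed by quantitative PCR in a larger set of animals, which included the arrayed ones. Its partner *EIF4E*, the cap-binding factor, ranged from 11.67 to 11.79 with a median of 11.75 at pasture and from 11.78 to 12.01 with a median of 11.84 indoors, a difference of -0.12 (SE 0.03, adjusted p = 0.241 from limma, exact permutation p = 0.00175). All 7 outdoor/pasture-fed animals lay above the indoor median for *EIF4EBP1*, and all 7 lay below it for *EIF4E*. *RHEB*, the GTPase that activates mTORC1, differed by -0.25 (SE 0.10, adjusted p = 0.369 from limma).

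In the MAPK branch (6 genes measured, 5 varying), *BRAF*, a kinase downstream of RAS, was at 8.78 ± 0.05 at pasture and 8.58 ± 0.17 indoors (SD, n = 7 each), a difference of 0.20 (SE 0.06, adjusted p = 0.280 from limma, exact permutation p = 0.00699). *HRAS*, the GTPase above it, was at 8.89 ± 0.18 and 9.15 ± 0.27 (SD, n = 7 each), a difference of -0.26 (SE 0.12, adjusted p = 0.442 from limma, exact permutation p = 0.0577). The differences of the pair had opposite signs. Every outdoor/pasture-fed animal lay above the indoor median for *BRAF* and below it for *HRAS*, but both genes were named for a small p.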

How the data were processed

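The 14 arrays fall into 7 outdoor/pasture-fed and 7 indoor/concentrate-fed animals by their labels, 1 array each. Per the study's methods, the authors applied quantile normalisation and FARMS summarisation in qFarms, giving the deposited log2 values. No further normalisation was applied. The study's filter for informative probe sets could not be rebuilt without probe-level data; an SD above 0.01 stands in for it. FARMS returned constants at low and high values alike, such as *GSK3A* at 10.34, which hides any change in those probe sets.

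Control probe sets (112) were left out. The package limma 3.58.1 (lmFit, eBayes; R 4.3.3) gave the differences, Benjamini-Hochberg adjusted over all 24016 probe sets, after a test on simulated data. Permutation tests were two-sided and exact (smallest p 0.000583). Correlations used 100000 resamples (smallest p 1e-05). A probe set was named where the annotation gives it 1 symbol (13292 probe sets).

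In each pathway group, genes past the threshold were to be named, otherwise the 2 with the smallest p; others were named after their values were seen. Members and lists were chosen with earlier results of these data known. The number of arrays limits the precision.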

Additional observations from a re-analysis of the deposited data

Results flagged for a closer look

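Of 46 sets of 7 animals checked (the varying probe sets of the listed genes and of the named pathway genes, each system apart), 6 had 1 animal whose gap to the next exceeded Dixon's 95% critical value as a share of the range, and chance gives about 5%. Indoor/concentrate-fed replicate 2 was at 8.18 for *IGFBP5*, with the next lowest at 10.22, and at 12.01 for *EIF4E*, with the next highest at 11.87. This array also had the lowest median correlation with the others. Indoor/concentrate-fed replicate 3 was at 9.08 for probe set 2 of *IGFBP3*, with the next at 8.51. Indoor/concentrate-fed replicate 1 was at 9.35 for probe set 1 of *IGF2*, with the next at 9.11. Outdoor/pasture-fed replicate 5 was at 6.90 for *IGFBP4*, with the next at 6.72. Outdoor/pasture-fed replicate 1 was at 11.81 for *SHC1*, with the next lowest at 11.88.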

How the results depend on the processing

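No ligand, receptor or binding protein passed an adjusted p of 0.05 under any alternative run, and their smallest adjusted p among varying probe sets lay between 0.370 and 0.824. At an unadjusted p under 0.05 the count of 0 became 1 with the replicate block and 1 with an intensity trend, in both cases a constant probe set of *IGF1* (difference 1.06e-05), and 0 to 2 on leaving out 1 array. Array weights turned the differences of *GHR* probe set 1 to -0.053 and of *IGFBP5* to -0.12. Leaving out 1 array at a time gave -0.046 to 0.10 for *IGF1*, -0.082 to 0.048 for *GHR* probe set 1, -0.14 to 0.37 for *IGFBP5*, -0.28 to 0.042 for *IGF2* probe set 2 and -0.093 to 0.019 for *IGFBP4*, all of which changed sign, and the cause was not tested. The other varying probe sets kept their sign in every setting that included them, though leaving out 1 array moved *INSR* from -0.12 to -0.039, *GHR* probe set 2 from 0.057 to 0.19, *GHR* probe set 3 from -0.18 to -0.097, *IGFBP3* from 0.035 to 0.28 and from 0.093 to 0.24, *IGF2* probe set 1 from 0.009 to 0.18 and *IGFBP6* from -0.33 to -0.061. Counts for the wider pathway stayed at 0 adjusted and within 1.5 times 12 unadjusted.

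Over the whole array, the count past the adjusted threshold was 4, and 33 with an SD above 0.01, 37 with an SD above 0.1, 17 with means above the median, 2 with the replicate block, 6 with renewed quantile normalisation, 26 with centred arrays, 17 with array weights and 1 to 8 on leaving out 1 array. The labels state no pairing by replicate number, so the numbers were taken to name animals alone. Correlations of same-numbered deviations were -0.18 to 0.24, with 2 of 7 above 0.1. Of the 14 arrays, 3 were most like their own number, among them both arrays numbered 2 (0.24). These values cannot show that no pairing exists. FARMS values carry no count depth, and signal over background was not given per probe set.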
